A study of Caenorhabditis elegans with 18 samples.

Results

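The yolk protein (vitellogenin) genes of *C. elegans*, *vit-1* to *vit-6*, were followed across 18 poly(A) RNA libraries of whole animals. They were chosen by name: the genes in the count files whose WormBase identifier carries 1 of these symbols. All 6 were found among the 46726 genes counted, and all 6 were among the 17560 genes with enough counts to be tested over the 18 libraries.

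Yolk proteins are lipid-carrying proteins that the intestine of the adult hermaphrodite makes, secretes into the body cavity and passes to growing oocytes, which take them up through the receptor RME-2. Transcription of the *vit* genes starts in the intestine around the last larval stage and climbs into adulthood, so their mRNA is commonly read as a marker of the switch to the adult intestine. *vit-6* encodes a precursor that is cleaved into the smaller yolk proteins. *vit-1* and *vit-2* encode one form of the large yolk protein, and *vit-3*, *vit-4* and *vit-5* encode another.

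The study asked which genes are dysregulated when an RNA binding protein and a transcription factor are lost together. Synchronized animals of the fourth larval stage were collected in 3 replicates, labelled A, B and C, of each of 6 genotypes. What a letter stands for (a day, a synchronization, a library preparation) is not given in the sources used here. Because RNA came from whole animals, fewer cells of a type and less RNA per cell cannot be told apart.

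The 6 genotypes were wild type (N2), *ceh-14(ch3)*, *fust-1(csb21)*, *tdp-1(csb38)* and 2 double mutants, *fust-1; ceh-14* with both of those genes lost and likewise *tdp-1; ceh-14*. *ceh-14* encodes a LIM homeodomain transcription factor, and *fust-1* and *tdp-1* encode RNA binding proteins. Each allele is a deletion carried by every cell of the animal, and each mutation was read in 1 allele. *csb21* carries a *myo-2::GFP* and *csb38* a *myo-3::GFP* marker in place of the gene, so in those strains the marker and the loss of the gene cannot be told apart. The targeted mRNAs bore out the labels by their mean levels: *ceh-14* stood at 5.54 CPM in wild type and at 1.41 to 1.84 CPM in the genotypes that carry *ch3*, *fust-1* at 156 CPM against 41.7 and 48.3 CPM, and *tdp-1* at 93.7 CPM against 14.9 and 18.4 CPM. CPM are counts scaled to a common library total after TMM normalization. In single libraries *ceh-14* came close: the lowest level without *ch3* was 2.70 CPM (*fust-1*), and the highest with it 2.47 CPM (*tdp-1; ceh-14*).

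Libraries held between 19556372 and 119814176 counts in genes. The ranges for replicates A (23861898 to 119814176), B (28134639 to 102097723) and C (19556372 to 69447549) overlapped. Replicate C of *fust-1* and replicate C of *tdp-1; ceh-14* stood apart from the other 16 libraries. In them, genes with 4 to 6 kb of exon, the length class of the yolk genes, lay at a median of -0.56 and -1.01 on the log2 scale. Each gene was taken relative to its own median over the 18 libraries. The 16 other libraries lay between -0.30 and 0.35. Genes under 1 kb lay at 0.38 and 0.56 in those 2 libraries. Values without them are given beside the results on letters, genotypes and gene lists that use them.

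Of the members, 5 lie on chromosome X and *vit-6* lies on chromosome IV (positions in WBcel235). *vit-6* spans IV:8261157-8266459 on the plus strand, with 5064 exon bases. *vit-2* spans X:5101042-5106169 and *vit-1* X:7727889-7733168, both on the plus strand, with 4934 and 5088 exon bases. *vit-5* spans X:3403471-3408603 on the plus strand, and *vit-4* (X:3558769-3563965) and *vit-3* (X:3567355-3572549) lie on the minus strand, separated by 3389 bases. Exons of *vit-2*, *vit-3* and *vit-4* share 11, 171 and 150 bases with a gene on the opposite strand (*C42D8.9* and the noncoding RNAs *T27A10.8* and *F59D8.3*). Whether counting used strand is not given in the sources used here. *vit-1* and *vit-2*, and *vit-3*, *vit-4* and *vit-5*, are close copies, and records that mapped to more than 1 position (5.89% to 12.2% per library) were not counted for any gene. The split of counts within each set of copies is therefore uncertain, and sums over the sets are given where they matter.

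*vit-6* and *vit-2* were the most abundant members per length of exon. Their mean levels over the 18 libraries were 2461 ± 1268 and 2335 ± 1066 RPKM (CPM per kilobase of exon, mean ± SD, n = 18). Both were read in the same libraries, and neither led throughout. *vit-2* lay above *vit-6* in 7 of the 18 libraries, 5 of them replicates B, 2 replicates C and 0 replicates A. *vit-5* followed at 1050.0 ± 641 RPKM and *vit-1* at 622 ± 348 RPKM. *vit-3* and *vit-4* were lowest and close to each other, at 340.2 ± 206 and 325 ± 167 RPKM. By RPKM *vit-6* ranked between place 2 and place 183 among all genes of a library, and *vit-3* between place 158 and place 2135. The 6 genes together took 1.30% (*tdp-1* replicate B) to 6.94% (*ceh-14* replicate A) of all counts in genes.

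*vit-6* stood at 19254, 7267 and 10463 CPM in wild-type replicates A, B and C. It stood at 25156, 8356 and 16319 CPM in *ceh-14*, 17647, 6712 and 4301 CPM in *fust-1* and 10812, 4714 and 14032 CPM in *tdp-1*. The double mutants stood at 21653, 10387 and 16618 CPM (*fust-1; ceh-14*) and 19059, 6650 and 4967 CPM (*tdp-1; ceh-14*), again for A, B and C. In 5 genotypes replicate A was the highest library. All 6 replicates A lay above all 6 replicates B, whatever the genotype. The 2 libraries that stand apart in gene length held 2 of the 3 lowest *vit-6* levels.

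*vit-2* encodes one form of the large yolk protein and is the member most often used as a reporter of yolk synthesis. It stood at 17034, 7412 and 9910 CPM in wild-type replicates A, B and C, 21973, 8370 and 15229 CPM in *ceh-14*, 17021, 7023 and 5474 CPM in *fust-1* and 9711, 4845 and 11833 CPM in *tdp-1*. The double mutants stood at 18902, 9800 and 14742 CPM (*fust-1; ceh-14*) and 16162, 7056 and 4922 CPM (*tdp-1; ceh-14*). The order of the libraries was nearly that of *vit-6* (Pearson r = 0.993 over the 18 libraries, as a description), and 5 of the 6 replicates A lay above every replicate B.

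Its close copy *vit-1* stood at 4727, 1531 and 2640 CPM in wild-type replicates A, B and C, 7357, 1391 and 3569 CPM in *ceh-14*, 3332, 1669 and 2369 CPM in *fust-1* and 2297, 968 and 3037 CPM in *tdp-1*. The double mutants stood at 6307, 2247 and 4767 CPM (*fust-1; ceh-14*) and 4666, 1626 and 2431 CPM (*tdp-1; ceh-14*). Replicate B was the lowest library of *vit-1* in every genotype. All 6 replicates A and all 6 replicates C lay above every replicate B.

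*vit-5*, the most abundant gene of the other large yolk protein, stood at 7786, 2250 and 3749 CPM in wild-type replicates A, B and C, 12684, 2341 and 6069 CPM in *ceh-14*, 6738, 2284 and 3744 CPM in *fust-1* and 3615, 1130 and 4853 CPM in *tdp-1*. The double mutants stood at 10198, 3481 and 7401 CPM (*fust-1; ceh-14*) and 7911, 2492 and 3317 CPM (*tdp-1; ceh-14*). Its 6 replicates A all lay above its 6 replicates B, and its libraries followed those of *vit-1* (r = 0.989, n = 18) more closely than those of its own copies *vit-4* (0.958) and *vit-3* (0.944).

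*vit-3* stood at 2294, 665 and 1272 CPM in wild-type replicates A, B and C, 4165, 684 and 1711 CPM in *ceh-14*, 1772, 682 and 2302 CPM in *fust-1* and 974, 296 and 1421 CPM in *tdp-1*. The double mutants stood at 3317, 1054 and 2502 CPM (*fust-1; ceh-14*) and 2432, 973 and 1638 CPM (*tdp-1; ceh-14*). The lowest library by far was *tdp-1* replicate B. Replicate B was the lowest library in every genotype.

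*vit-4* stood at 2121, 735 and 1402 CPM in wild-type replicates A, B and C, 3581, 977 and 1865 CPM in *ceh-14*, 1574, 828 and 1439 CPM in *fust-1* and 894, 424 and 1349 CPM in *tdp-1*. The double mutants stood at 3008, 1373 and 2439 CPM (*fust-1; ceh-14*) and 2326, 1109 and 1439 CPM (*tdp-1; ceh-14*). Within a genotype the highest *vit-4* library was 1.90 to 3.67 times the lowest, against 2.5 to 6.09 times for *vit-3*.

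**Figure D1:**
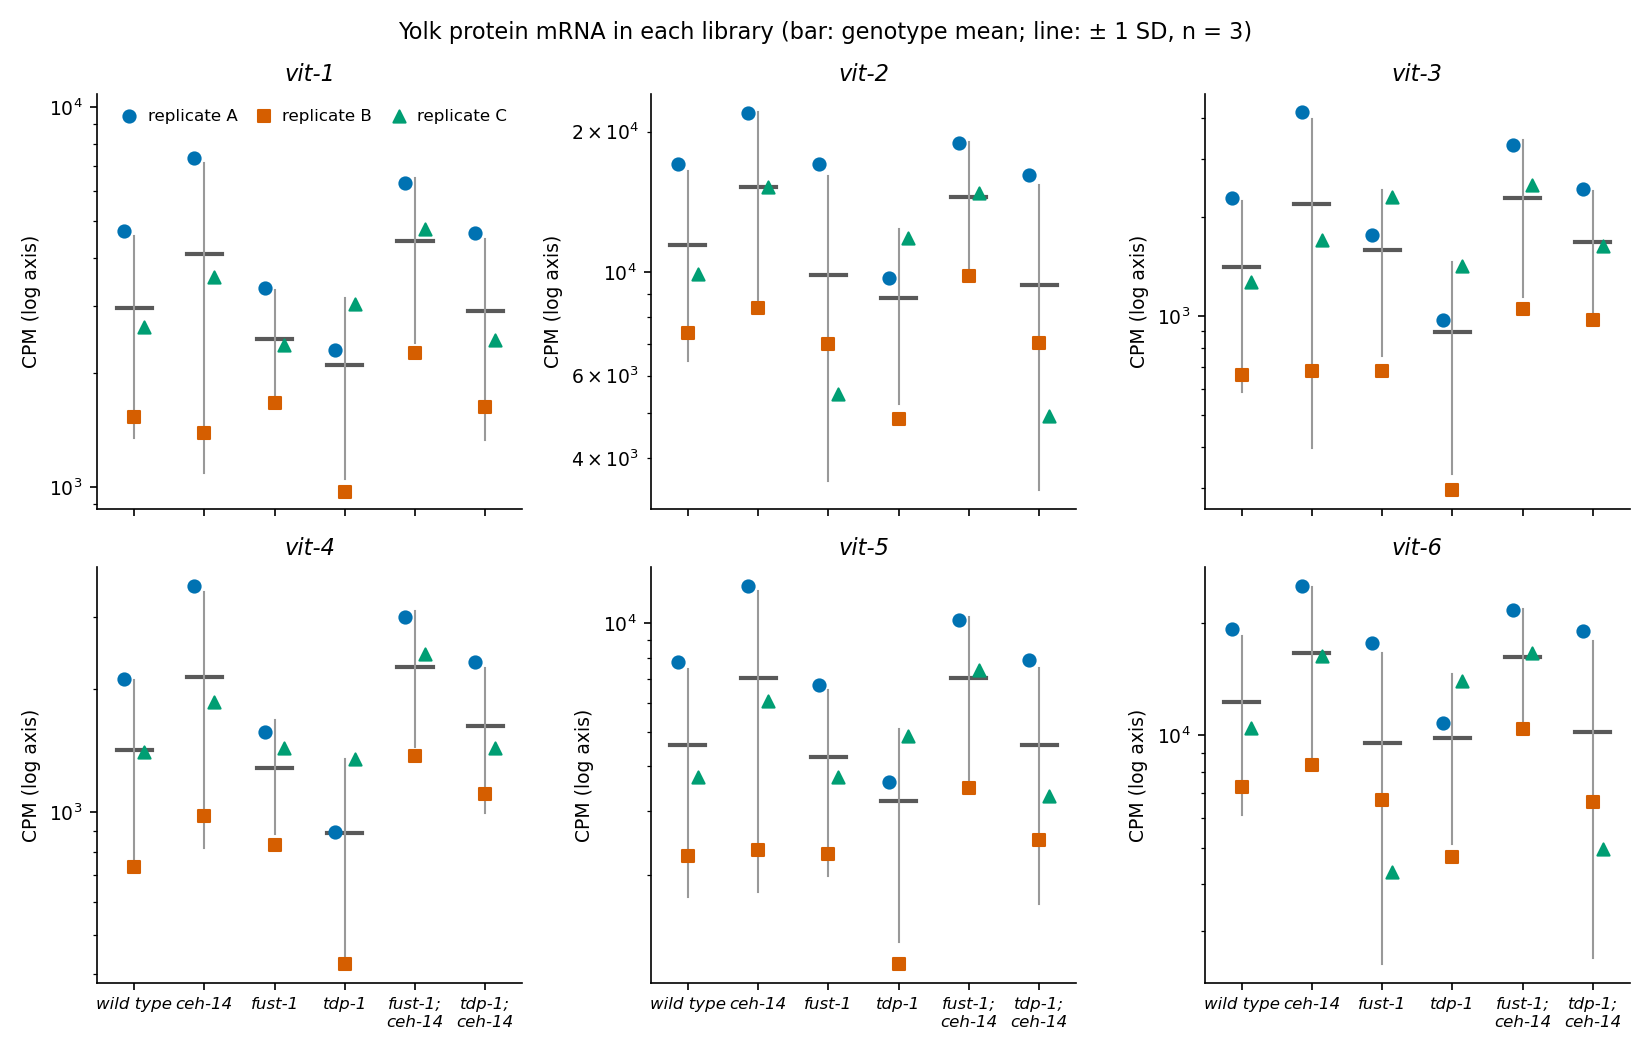
Level of each yolk protein gene in CPM (log axis) by genotype, with 1 point per library (circle, replicate A; square, B; triangle, C), a bar for the mean and a line for 1 SD (n = 3). Replicate A lies above replicate B in 6 of 6 genotypes for every gene, while the spans of the genotypes overlap.

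The spread between replicates of 1 genotype was in most cases larger than that between genotype means, each of which averages 3 libraries. For *vit-2*, *vit-5* and *vit-6* it was larger in every genotype. The highest genotype mean was 1.73 (*vit-2*) to 2.56 (*vit-4*) times the lowest. Within a genotype, the highest library was 1.90 to 6.09 times the lowest. The letters ran in the same order in most cases: of the 36 pairs of member and genotype, 25 had A above C above B, A was highest in 29 and B lowest in 32. A was never lowest and B never highest. All 6 members had C above A in *tdp-1*, and so did *vit-3* in *fust-1*. The 4 pairs in which C was lowest were *vit-2* and *vit-6* in the 2 libraries that stand apart.

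The test across replicate letters compared the letters with genotype kept in the model, on all 18 libraries (edgeR's quasi-likelihood test with Benjamini-Hochberg adjustment over 17560 genes, a call at an adjusted p under 0.05). All 6 members differed between letters (adjusted p from 0.000465 to 0.0084), where 26.4% of all genes tested did. Pairs of letters were then compared.

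All 6 members were lower in replicates B than in replicates A, where 6.74% of all genes were lower. On the log2 scale *vit-5* stood at -1.78 (standard error 0.20, adjusted p = 0.000198 from edgeR) and *vit-3* at -1.76 (standard error 0.21, adjusted p = 0.000366). *vit-1* (-1.55), *vit-6* (-1.38), *vit-4* (-1.28) and *vit-2* (-1.18) had adjusted p of at most 0.00437 and standard errors of at most 0.25. The median of the members was -1.47, and that of all genes 0.03. Each member was lower in B than in A in 6 of 6 genotypes. Summed over close copies, *vit-1* with *vit-2* stood at -1.25 and *vit-3*, *vit-4* and *vit-5* together at -1.68 (adjusted p = 0.00173 and 0.000192). Other genes of 4 to 6 kb also lay lower in B than in A, at a median of -0.32 for 536 genes, with 22.6% of them called lower. Each library's trend of level on exon length was then fitted. That trend holds anything that varies with exon length across genes, so the part of gene length itself was not measured. With the trend taken out, all 6 members remained lower in B, where 6.3% of all genes were lower. They stood at -1.20 (*vit-1*), -0.82 (*vit-2*), -1.43 (*vit-3*), -0.94 (*vit-4*), -1.44 (*vit-5*) and -1.01 (*vit-6*). Without *fust-1* replicate C and *tdp-1; ceh-14* replicate C all 6 were again lower, where 15.9% of all genes were.

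Between replicates C and A the members differed less, and the calls rested on single libraries. *vit-6* (-0.85 on the log2 scale, standard error 0.26, adjusted p = 0.0267 from edgeR), *vit-2* (-0.74), *vit-5* (-0.69) and *vit-1* (-0.56) were lower in C, where 13% of all genes were lower. *vit-3* (-0.36, adjusted p = 0.199) and *vit-4* (-0.34, adjusted p = 0.119) did not pass the test. Other genes of 4 to 6 kb lay at a median of -0.47 in this comparison, and 60.1% of them were called lower. With the length trend taken out, 0 of the 6 members were called, at values from -0.37 (*vit-6*) to 0.17 (*vit-4*), where 7.36% of all genes were lower. Without the 2 libraries that stand apart, 0 of 6 were called, at values from -0.48 (*vit-5*) to -0.24 (*vit-4*), where 2.73% of all genes were lower. The calls of all 4 members were also lost on leaving out wild-type replicate A, *fust-1* replicate C, *tdp-1; ceh-14* replicate A or *tdp-1; ceh-14* replicate C alone, and 2 of 6 members were called without wild-type replicate C, *ceh-14* replicate A or *fust-1* replicate A.

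Replicates C were higher than replicates B for *vit-3* (1.40 on the log2 scale, standard error 0.21, adjusted p = 0.00861 from edgeR), *vit-5* (1.09), *vit-1* (0.997) and *vit-4* (0.94), where 0.308% of all genes were higher. *vit-2* (0.43, adjusted p = 0.472) and *vit-6* (0.53, adjusted p = 0.467) did not pass the test. Other genes of 4 to 6 kb lay slightly lower in C than in B, at a median of -0.14. Without the 2 libraries that stand apart, all 6 members were higher in C than in B, from 0.82 (*vit-2*) to 1.37 (*vit-3*), where 0.0686% of all genes (12 of 17491) were. With the length trend taken out, 5 of 6 were higher, where 0.438% of all genes were, and *vit-6* stood at 0.64 (adjusted p = 0.0794). With both changes, where 0.0286% of all genes were higher, *vit-2*, *vit-5* and *vit-6* passed at an adjusted p of 0.0411, and *vit-1*, *vit-3* and *vit-4* missed the threshold at 0.0521 to 0.0527. Leaving out *ceh-14* replicate B, *tdp-1* replicate B or *fust-1; ceh-14* replicate B left 1 member called, and leaving out wild-type replicate B or *tdp-1; ceh-14* replicate B left 2.

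**Figure D2:**
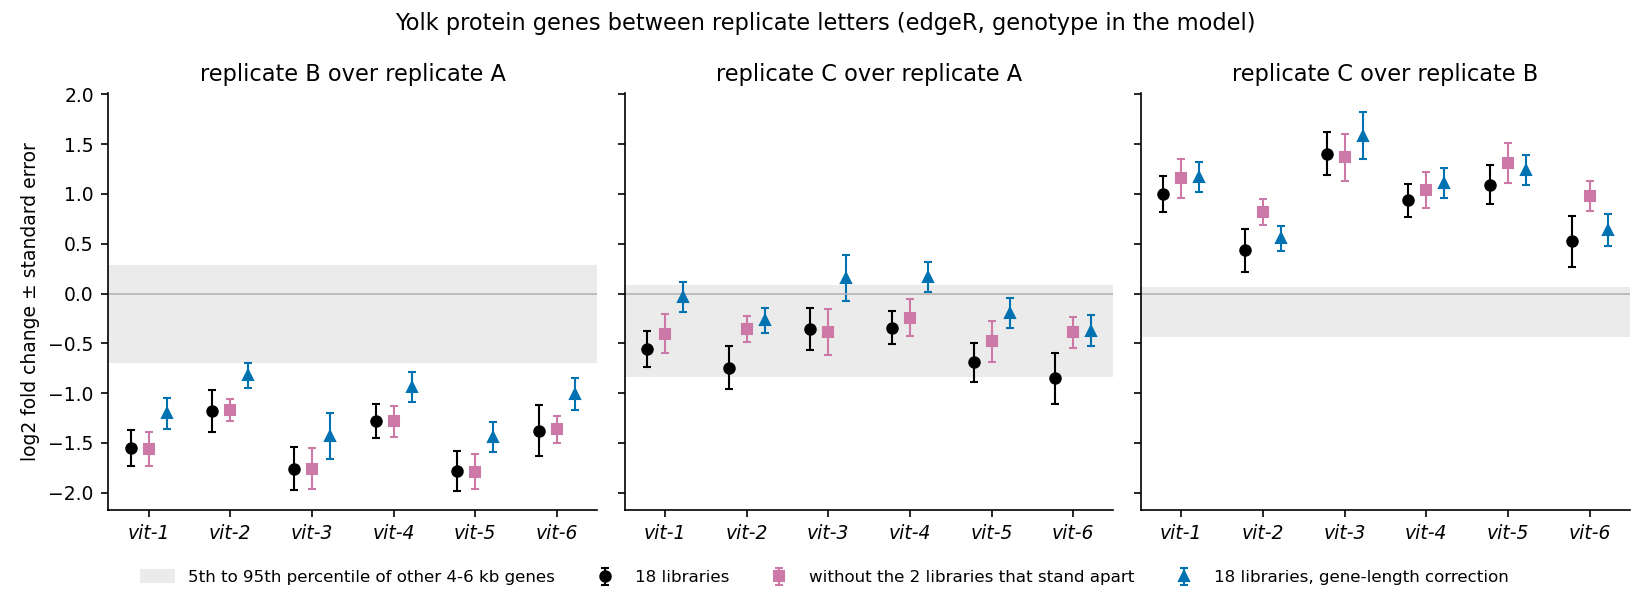
Log2 fold change between replicate letters with its standard error (edgeR, genotype in the model) for all 18 libraries (circles), without the 2 libraries that stand apart (squares) and with the trend on gene length taken out (triangles). The grey band holds the 5th to 95th percentile of other genes of 4 to 6 kb. Every member lies below 0 for B over A and above 0 for C over B in all 3 fits.

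The 6 genes did not keep a fixed ratio to each other. *vit-6* and *vit-2* together made up 62.9% (*ceh-14* replicate A) to 77.2% (*tdp-1* replicate B) of the yolk counts in 16 libraries. In *fust-1* replicate C and *tdp-1; ceh-14* replicate C they made up 49.8% and 52.8%, below every other library. *vit-3* over *vit-6* stood at -0.90 and -1.60 on the log2 scale in those 2 libraries and between -3.99 and -2.59 in the other 16. The ratio of *vit-3* to *vit-4*, which lie next to each other, ran from 0.70 to 1.60 over the 18 libraries. In *fust-1* replicate C *vit-3* exceeded the wild-type replicate C (2302 against 1272 CPM), while *vit-6* was below it (4301 against 10463 CPM). All members have 4870 to 5088 bases of exon. What separates *vit-3* from *vit-6* in those 2 libraries was not tested.

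**Figure D3:**
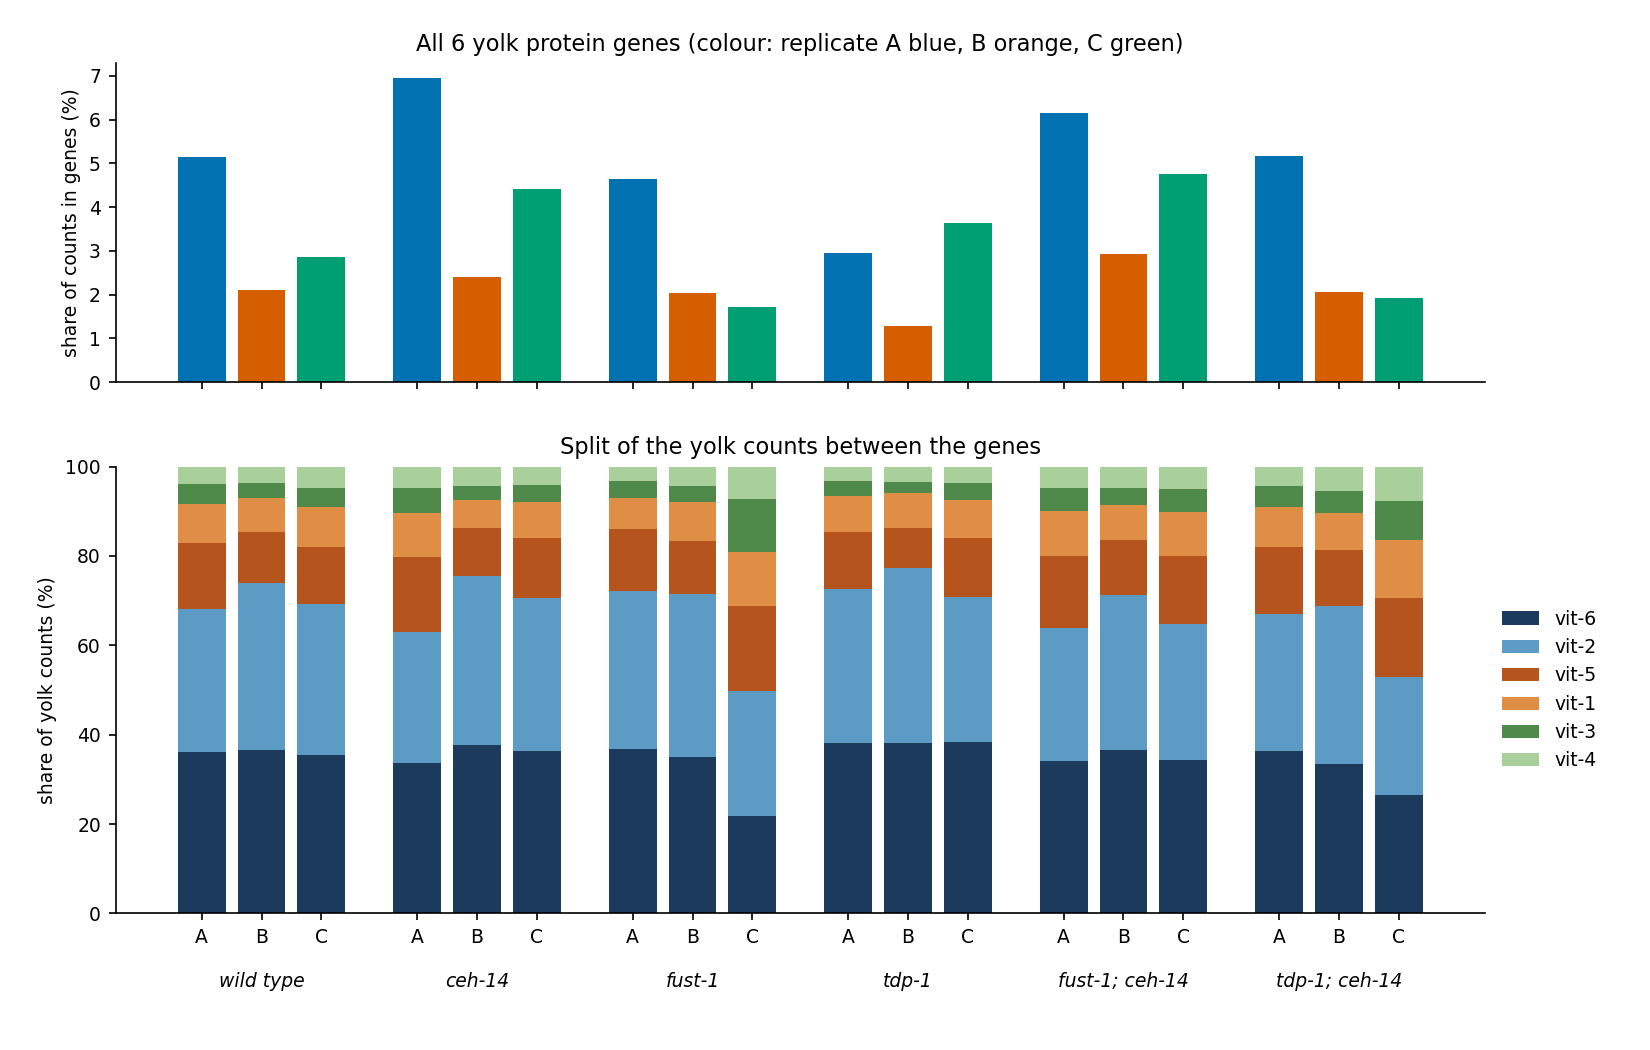
Share of all counts in genes taken by the 6 yolk protein genes (top, %) and the split of those counts between the genes (bottom, %), with 1 bar per library. The shares run from 1.30% to 6.94%, and *vit-2* with *vit-6* make up least in *fust-1* replicate C (49.8%) and *tdp-1; ceh-14* replicate C (52.8%).

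Genes of yolk control and uptake were read in the same libraries. The regulators list held 18 genes, among them the intestinal GATA factors *elt-2* and *elt-7*, the homeodomain activators *unc-62* and *ceh-60*, the heterochronic genes *lin-14*, *lin-28*, *lin-29* and *lin-42* and the insulin receptor *daf-2*. Of these, 1 was higher in B than in A and 2 were lower, where 12.8% of all genes were higher and 6.74% lower. *ceh-60*, which with *unc-62* activates *vit* genes, was higher in B by 0.56 on the log2 scale (standard error 0.11, adjusted p = 0.00697 from edgeR), and so moved against the members. *daf-2* (-0.85) and the TORC2 subunit *rict-1* (-0.59) were lower, and the median of the list was -0.12 against 0.03 over all genes. In C against A, *daf-2*, *daf-16*, *rict-1* and *sma-9* were lower, from -0.57 (*daf-16*) to -1.05 (*daf-2*), where 13% of all genes were lower. Without the 2 libraries that stand apart only *daf-2* and *rict-1* were, where 2.73% of all genes were.

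Of 10 genes of yolk assembly, export and uptake, 4 were lower in B than in A, where 6.74% of all genes were. None was higher at this threshold. The yolk receptor gene *rme-2*, expressed in oocytes, stood at -0.44 (adjusted p = 0.0236 from edgeR), the endocytic gene *rme-8* at -0.56, the clathrin heavy chain *chc-1* at -0.51 and the clathrin adaptor subunit *apa-2* at -0.40. In C against A the same 4 genes and *rme-4* were lower, where 13% of all genes were. Without the 2 libraries that stand apart only *rme-8* was, where 2.73% of all genes were. The summed level of the list ran from 1869 to 2573 CPM in replicates A and from 1512 to 1920 CPM in replicates B. Of other genes of 4 to 6 kb, 22.6% were lower in B than in A and 60.1% lower in C than in A. No gene list was tested with the length trend taken out.

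Intestinal genes were present in every library, with none of 10 at 0 and a summed level of 3505 to 8240 CPM. Of them 2 were higher and 3 lower in B than in A, where 12.8% of all genes were higher and 6.74% lower. The gut esterase *ges-1* (-0.71) and the proteases *asp-1* (-0.65) and *cpr-6* (-0.35) were lower in B, and the acid phosphatase *pho-1* (0.64) and the sodium-proton exchanger *nhx-2* (0.47) were higher, with a list median of 0.19. *elt-2*, the factor that defines the tissue, stood at 19.7 to 32.3 CPM over the 18 libraries. Across libraries the summed list had r = 0.168 with the mean log2 CPM of the members (n = 18, points that share genotype and letter, as a description), and r = 0.685 once both were taken as deviations from their genotype means. On those deviations the oocyte and eggshell list had r = 0.730 and the uptake list r = 0.690. The intestine sum leans on *asp-1* (mean 2727 CPM), and its single genes ran both ways on deviations. *ges-1* (0.866), *asp-1* (0.744), *vha-6* (0.643) and *cpr-6* (0.525) ran with the members. *pho-1* (-0.821), *nhx-2* (-0.726), *elt-2* (-0.603), *ifb-2* (-0.362), *pept-1* (-0.218) and *act-5* (-0.177) ran against them.

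Markers of germ line and stage were read in the same way. Of 14 oocyte and eggshell genes, 5 were lower in B than in A, where 6.74% of all genes were. They were *cbd-1* (-0.68), *chs-1* (-0.61), *perm-2* (-0.51), *perm-4* (-0.45) and *rme-2*, which is also in the uptake list. The summed level of the 14 had a median of 11138 CPM in replicates A and 7893 CPM in replicates B. Of 12 sperm genes, 9 were higher in B, from 0.44 (*gsp-4*) to 0.85 (*peel-1*), and none was lower at this threshold, where 12.8% of all genes were higher. Their summed level ran from 206 to 450 CPM in A (median 268), 316 to 570 CPM in B (median 441) and 280 to 537 CPM in C (median 414). Of 5 adult cuticle genes, the collagens *col-7* (1.53) and *col-62* (1.31) were higher in B, and of 14 molting cycle genes only *dpy-2* (1.08) passed. Without the 2 libraries that stand apart, 9 oocyte and eggshell genes were lower and 10 sperm genes higher in B than in A, with 2 adult cuticle genes and 1 molting cycle gene higher as before. Calls over all genes also rose in that fit: 15.9% were lower, against 6.74% with all 18 libraries, and 35.2% were called in either direction, against 19.5%. In C against A, 6 oocyte and eggshell genes were lower, where 13% of all genes were. Higher in C were 7 sperm genes, 2 adult cuticle genes (*col-7* and *col-19*) and *dpy-2*, where 17.5% of all genes were higher. Without the 2 libraries that stand apart, 0 genes of these 4 lists were called in C against A, where 2.25% of all genes were higher and 2.73% lower. Between C and B the only list genes called were *cpr-6* (0.54) and *perm-2* (0.43), both higher in C, where 0.308% of all genes were. Without those libraries 0 were called. The list of 7 genes of male-specific neurons summed to 0.369 to 2.11 CPM, with up to 3 of the 7 at 0 in a library. *cwp-4* was the gene of that list called between letters (-1.06 in B against A). The part of these other genes in the yolk difference was not tested.

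Over the 18 libraries, the mean log2 CPM of the 6 members had a Pearson r of 0.745 with the summed oocyte and eggshell genes, 0.627 with the uptake genes, 0.316 with the regulators, -0.106 with adult cuticle, -0.309 with the molting cycle, -0.753 with sperm and 0.272 with male-specific neurons (on log2 summed CPM). With the genes of 4 to 6 kb it was 0.482. Without the 2 libraries that stand apart, oocyte and eggshell stood at 0.776, uptake at 0.801, sperm at -0.763 and the genes of 4 to 6 kb at 0.655. Most of the adult cuticle sum was *col-19* (mean 2869 CPM), which had r = 0.069 over the 18 libraries. The other adult cuticle genes had a negative r: *col-7* -0.676, *col-62* -0.632, *bli-2* -0.407 and *bli-1* -0.135. In the molting cycle list *nas-37* was the most abundant (mean 57.4 CPM) and had r = 0.420, while most of the list had a negative r. Taken as deviations from genotype means, the molting cycle stood at -0.007, adult cuticle at -0.224 and sperm at -0.762. These are descriptions: the points share genotypes and letters, and library composition enters both axes.

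**Figure D4:**
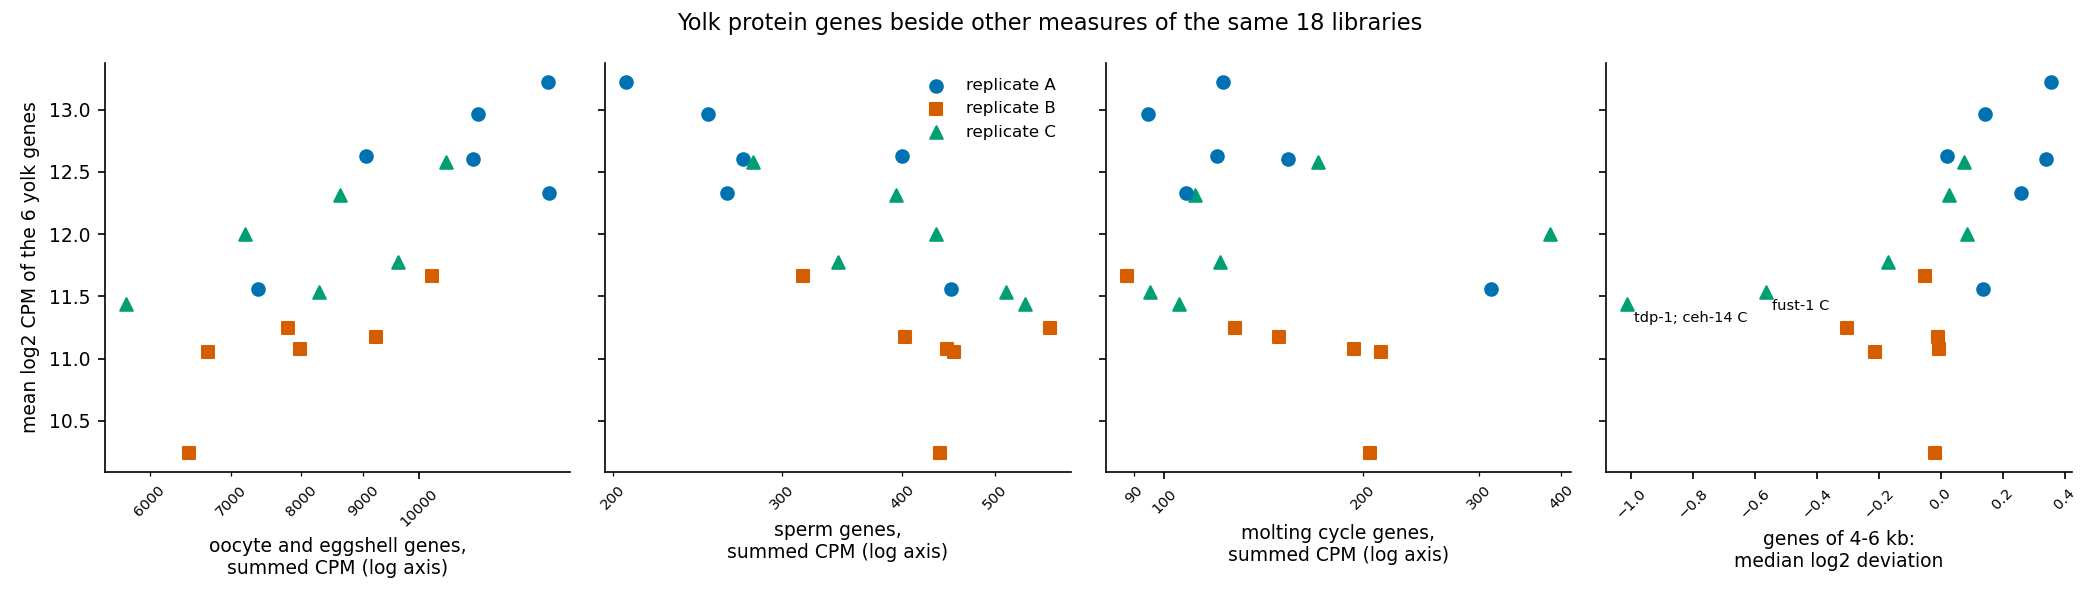
Mean log2 CPM of the 6 yolk protein genes in each of the 18 libraries (circle, replicate A; square, B; triangle, C) against the summed CPM (log axis) of oocyte and eggshell, sperm and molting cycle genes and the median log2 deviation of genes of 4 to 6 kb. Yolk levels run up with the oocyte list (r = 0.745) and down with the sperm list (r = -0.753).

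The genes whose libraries were ordered most like the mean of the members, out of 17554 other genes tested, were *C07D8.6* (r = 0.917), *got-2.2* (0.909), *cht-3* (0.885), *app-1* (0.881), *trap-1* (0.865), *pcca-1* (0.864), *hgo-1* (0.863), *men-1* (0.860), *clec-218* (0.850) and *srp-2* (0.844). Several encode enzymes of amino acid and carbon metabolism, such as homogentisate dioxygenase (*hgo-1*), an aspartate aminotransferase (*got-2.2*), a propionyl-CoA carboxylase subunit (*pcca-1*) and malic enzyme (*men-1*). The relative span of most was smaller than that of the yolk genes: *got-2.2* ran from 123 to 238 CPM and *C07D8.6* from 146 to 245 CPM. *clec-218* was the exception, from 5.67 to 29.7 CPM. The 5 genes most opposite were *fbxa-166* (-0.934), *sru-40* (-0.912), *B0507.2* (-0.908), *D2021.4* (-0.906) and *fbxc-23* (-0.898), and *B0507.2* was the most abundant of them at a mean of 21.6 CPM. The median r over all genes was -0.08.

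Between genotypes, the members were not called in any of the 5 comparisons with wild type (0 of 6 in each). The comparisons share the 3 wild-type libraries. The share of all genes called by edgeR was 0.092% for *ceh-14*, 0.0184% for *fust-1*, 0.128% for *tdp-1*, 0.351% for *fust-1; ceh-14* and 0.12% for *tdp-1; ceh-14* (15, 3, 21, 55 and 20 genes, with 657, 335, 3154, 1385 and 1287 genes at an unadjusted p under 0.05). DESeq2 called none of the members either. Standard errors of the members lay between 0.36 and 0.67 on the log2 scale. The same edgeR test missed some targeted genes: *ceh-14* in *ceh-14* (-1.60, adjusted p = 0.0723), *fust-1* in *fust-1* (-1.89, adjusted p = 0.0773) and *ceh-14* in *tdp-1; ceh-14* (-1.99, adjusted p = 0.351). The other targeted genes passed, at an adjusted p of at most 0.0185. A member that was not called is therefore not shown to be unchanged.

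The members' values against wild type were 0.43 (*vit-2*) to 0.65 (*vit-3*) in *ceh-14*, -0.35 (*vit-6*) to 0.16 (*vit-3*) in *fust-1* and -0.67 (*vit-4*) to -0.32 (*vit-6*) in *tdp-1*. In *fust-1; ceh-14* they were 0.37 (*vit-2*) to 0.73 (*vit-3*), and in *tdp-1; ceh-14* -0.28 (*vit-2*) to 0.25 (*vit-3*). The members' median in *fust-1* was -0.18, and -0.09 without *fust-1* replicate C. It ran from -0.62 without *fust-1* replicate A to 0.28 without wild-type replicate A. As a share of all counts in genes, the 6 genes took 2.62 ± 1.20% in *tdp-1*, 2.80 ± 1.59% in *fust-1*, 3.05 ± 1.83% in *tdp-1; ceh-14*, 3.37 ± 1.58% in wild type, 4.58 ± 2.28% for the *ceh-14* single mutant and 4.61 ± 1.62% in *fust-1; ceh-14* (mean ± SD, n = 3 each). The spans of all 6 genotypes overlapped.

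Compared within a letter, *fust-1; ceh-14* lay above wild type for all 6 members in each of A, B and C, at medians of 0.40, 0.59 and 0.83 on the log2 scale. *ceh-14* lay above wild type for 6, 5 and 6 members, at medians of 0.67, 0.12 and 0.53. *tdp-1* lay below wild type for all 6 members in A and B (medians -1.07 and -0.73), but above it for 5 of 6 in C (median 0.23). Each of these values rests on single pairs of libraries.

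The double mutants were also set against their single mutants, and 0 of 6 members were called in each of the 4 comparisons. *fust-1; ceh-14* stood at 0.57 (*vit-2*) to 0.88 (*vit-1*) over *fust-1*, where 0.0494% of all genes were called, and at -0.07 to 0.11 over *ceh-14*, where 0.0308% were. *tdp-1; ceh-14* stood at -0.72 (*vit-6*) to -0.40 over *ceh-14*, where 0.00594% were called, and at 0.06 (*vit-6*) to 0.91 (*vit-3*) over *tdp-1*, where 3.67% (619 genes) were. Without *fust-1* replicate C the members' median of *fust-1; ceh-14* over *fust-1* was 0.73, against 0.76 with it. Without *tdp-1; ceh-14* replicate C that of *tdp-1; ceh-14* over *ceh-14* was -0.39, against -0.58 with it. The interaction tests, which ask whether the double mutant differs from the sum of its single losses, called 0 of 6 members for *fust-1; ceh-14* (median 0.21, 0.0237% of all genes called) and 0 of 6 for *tdp-1; ceh-14* (median -0.05, 0.0405% of all genes called). Without the library that stands apart, these medians were 0.13 and 0.10, the latter changed in sign. Over these 6 comparisons, 308 (interaction of *fust-1; ceh-14*) to 3721 genes (*tdp-1; ceh-14* over *tdp-1*) had an unadjusted p under 0.05.

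Libraries with the same letter deviated together from their genotype means in 7 of the 11 comparisons, among them *tdp-1*, *ceh-14*, *fust-1* and *tdp-1; ceh-14* against wild type and *tdp-1; ceh-14* against *tdp-1*. The block raised the genes called to 209 for *ceh-14*, 6 for *fust-1*, 927 for *tdp-1*, 655 for *tdp-1; ceh-14* against wild type and 1230 for *tdp-1; ceh-14* against *tdp-1*. With the letter as a block alone, no member was called in these 7, and the nearest were *vit-3* (1.09, adjusted p = 0.0502 from edgeR) and *vit-4* (0.96, adjusted p = 0.0677) in *tdp-1; ceh-14* over *tdp-1* and *vit-4* (-0.70, adjusted p = 0.0508) in *tdp-1* over wild type. With the block and all 18 libraries in 1 fit, *vit-3* (1.04, adjusted p = 0.0425) and *vit-4* (0.91, adjusted p = 0.0283) passed in *tdp-1; ceh-14* over *tdp-1*, 2 of 6 members where 3.22% of all genes were higher.

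With the block and the trend on gene length taken out, members were called in 3 of the 7. In *tdp-1; ceh-14* over *tdp-1*, *vit-3* (1.65, standard error 0.17, adjusted p = 0.000311 from edgeR), *vit-4* (1.53, adjusted p = 0.000235), *vit-5* (1.14, adjusted p = 0.00432) and *vit-1* (1.08, adjusted p = 0.00153) were higher, 4 of 6 members where 2.99% of all genes were higher. In *tdp-1; ceh-14* over wild type, *vit-3* (0.80, adjusted p = 0.00944) and *vit-4* (0.72, adjusted p = 0.00838) were higher, 2 of 6 where 2.24% were. In *tdp-1* over wild type, *vit-4* was lower (-0.81, adjusted p = 0.0263), 1 of 6 where 1.05% were, and *vit-1* and *vit-3* missed the threshold at 0.0577 and 0.0572. This fit was chosen after the data had been seen, and *vit-2* and *vit-6* were not called in it. In replicate C of *tdp-1; ceh-14* long genes lay lowest of all libraries, so the same fit was run without it, which left 5 libraries and 1 residual degree of freedom. Replicate C of *tdp-1* or of wild type then had no partner in its letter, so these values rest on replicates A and B. Over *tdp-1*, all 6 members were higher in that fit, from 0.88 (*vit-2*) to 1.76 (*vit-3*), where 3.11% of all genes were. Compared within letter C, 4 of 6 members lay lower in *tdp-1; ceh-14* than in *tdp-1*, at a median of -0.44. Over wild type, *vit-3* (0.56) and *vit-4* (0.60) were higher, where 1.16% were. Without *tdp-1; ceh-14* replicate C and without block or length trend, the double mutant's member median over *tdp-1* was 0.64 (against 0.49 with that library). Over wild type it was 0.15 (against -0.02), with 0 of 6 called in both.

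**Figure D5:**
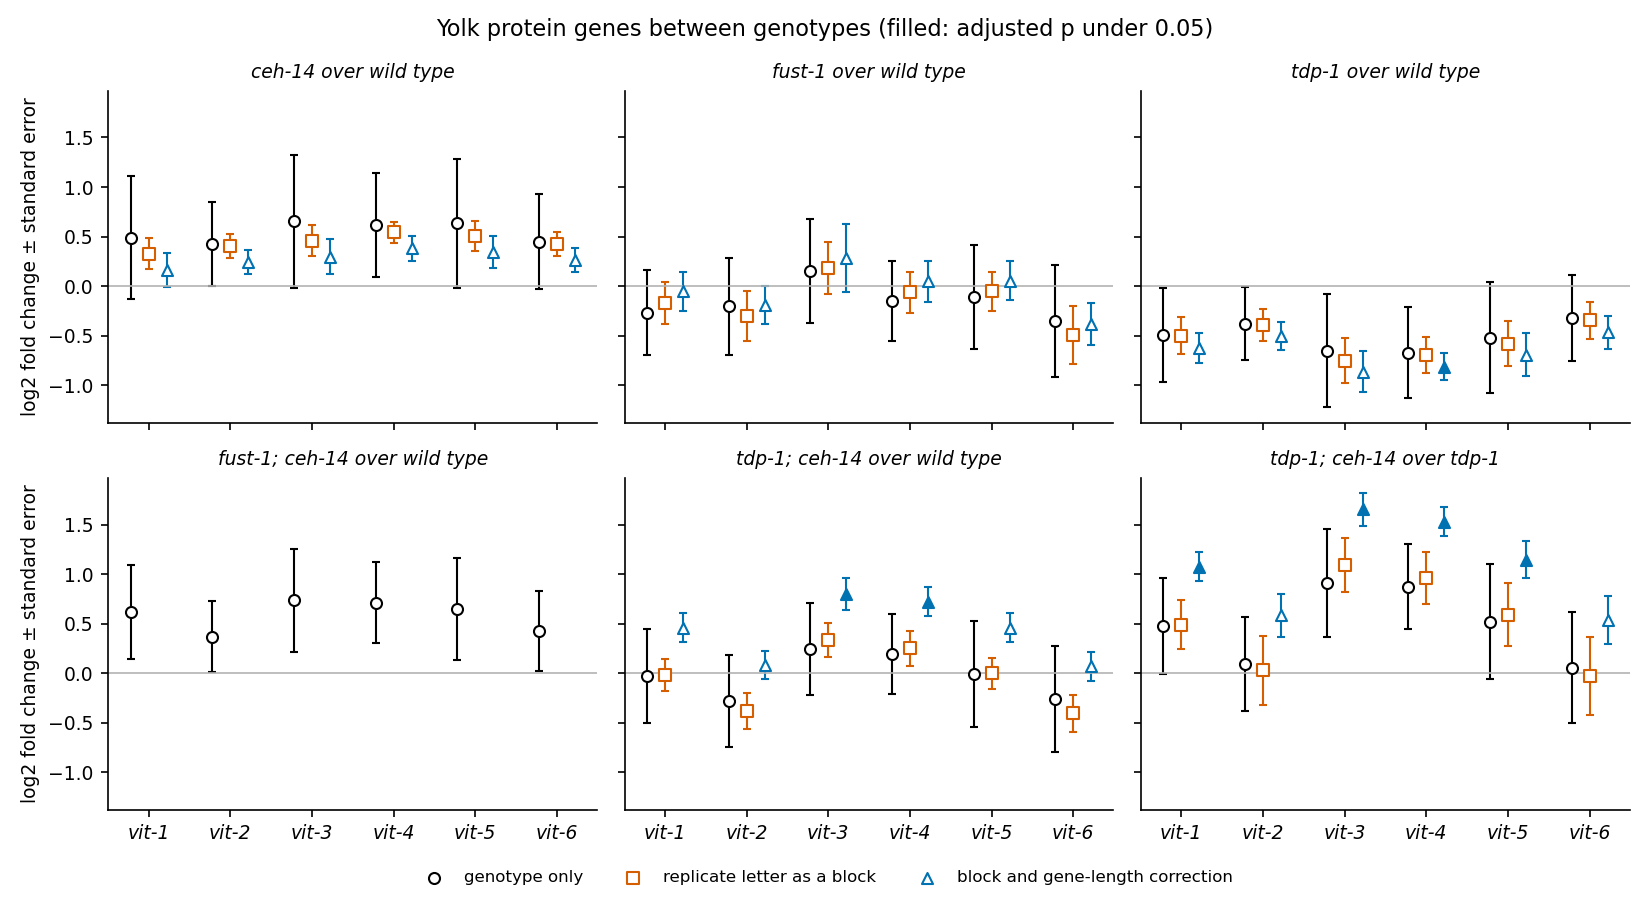
Log2 fold change of each yolk protein gene between genotypes with its standard error (edgeR), with genotype alone (circles), with the replicate letter as a block (squares) and with the block and the length trend taken out (triangles). Filled symbols have an adjusted p under 0.05. With genotype alone none is filled, and 4 are filled for *tdp-1; ceh-14* over *tdp-1* once the block and the length trend are in the model. For *fust-1; ceh-14* over wild type, where letters did not pair the libraries, genotype alone is shown.

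Of the gene lists, those of the cuticle and the molt held most of the calls in *tdp-1; ceh-14* against *tdp-1*, where 2.83% of all genes were lower. Of 14 molting cycle genes, 11 were lower in the double mutant (list median -1.94, against 0.02 over all genes), among them *mlt-11* (-2.66) and *noah-1* (-2.43), and of 5 adult cuticle genes 4 were lower, among them *bli-1* (-2.74). Without *tdp-1; ceh-14* replicate C, 3 of 14 and 2 of 5 were called lower, where 2.18% of all genes were, with list medians of -1.87 and -1.36. *lin-42*, the period homolog that cycles with the molt, fell by 2.51 on the log2 scale (adjusted p = 0.00877 from edgeR). *cwp-1* of the male-neuron list was higher by 3.07 (adjusted p = 0.0476 from edgeR), at levels near the floor: 0 to 0.763 CPM over the 18 libraries. Of the 7 genes of that list 4 were tested there. Without *tdp-1; ceh-14* replicate C, *lin-42* was again called and *cwp-1* was not. No gene of the uptake, intestine, oocyte or sperm lists was called in that comparison, and no list gene was called in the other 10 genotype comparisons. Summed molting genes ran from 205 to 385 CPM in the 3 *tdp-1* libraries, against 87.7 to 213 CPM in the other 15, and the part of these genes in the yolk values of *tdp-1* was not tested.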

How the data were processed

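The submitters extracted RNA from synchronized fourth-stage animals, prepared poly(A) libraries and sequenced paired ends. The authors mapped reads with STAR to WBcel235 and counted them per gene with HTSeq. The deposited values are raw, whole-number counts for 46726 genes in each of 18 libraries, of which 43623 have a symbol in the reference annotation used here. Tallies of unassigned records, namely outside genes (0.461% to 0.738%), ambiguous (1.87% to 2.75%), not uniquely placed (5.89% to 12.2%), of low quality (0) and unaligned (0), were left out of library sizes and tests. No library repeated another: the closest replicates differed with a chi-square of 24.2 times its degrees of freedom.

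Groups came from the labels. A fit per comparison took the libraries of the genotypes compared (edgeR 4.0.16 under R 4.3.3: filterByExpr, TMM, quasi-likelihood F test). Benjamini-Hochberg adjustment ran over every gene tested, and a call needed an adjusted p under 0.05. The letter test used all 18 libraries with genotype and letter as terms. A standard error is the size of the log2 fold change over the square root of F. Log2 CPM used a prior count of 2. The trend on gene length was a lowess (span 0.3) of each library's log2 CPM deviation on log2 exon length, used as an offset, and 190 tested genes had no length. Alternatives were the size factors of DESeq2, DESeq2 1.42.0 itself, no filter, a log2 threshold of 1 with an adjusted p under 0.01, close copies summed, each library left out, the letter as a block and all 18 libraries in 1 fit. The fits without 2 libraries, with the length trend (also without *tdp-1; ceh-14* replicate C) and with the block and 18 libraries together were chosen after the data had been seen. The scripts were tested on simulated data.

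Letters counted as a pairing where every same-letter pair of libraries had a correlation over 0.1 between its deviations from the genotype means. This held in 39 of 45 pairs of genotypes and letters, and for 7 of the 11 comparisons. The labels give the letters only.

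The members and gene lists (vitellogenin regulators, yolk assembly, export and uptake, intestine, adult cuticle, molting cycle, oocyte and eggshell, sperm, male-specific neurons) were chosen with earlier results of these data known. Genes named beside the members are the targeted genes, the 10 most and 5 least alike by Pearson r over the 18 libraries, and list genes that passed a test or had high counts. *lin-14*, *lin-28*, *lin-29* and *elt-7* are named only to say what the list holds.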

Additional observations from a re-analysis of the deposited data

Results flagged for a closer look

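*vit-3* in *tdp-1* replicate B lay apart from the other 5 replicates B. Its log2 CPM was 8.21, against 9.38 in the nearest and 10.04 in the highest of the other replicates B. The gap to the nearest was 0.637 of the whole range, above Dixon's critical value for 6 values. Of 18 sets of 6 libraries looked at (each member in each letter), this was the only one, and chance gives about 1 in 20. *tdp-1* replicate B also held the lowest share of yolk counts of the 18 libraries, at 1.30%.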

How the results depend on the processing

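Of 722 values of single members under the alternatives, 15 changed sign, 51 lost and 23 gained significance. All 141 values of B against A kept their sign and their side of the threshold. Between C and A, 0 of 6 members were called with the length trend taken out (*vit-3* 0.16 and *vit-4* 0.17, changed in sign), 0 without *fust-1* and *tdp-1; ceh-14* replicates C, and 0 with both (*vit-4* 0.0107). With each library left out in turn, the members called ran from 0 to 6 for C against A and from 1 to 4 for C against B.

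With the letter as a replicate block, 2 of 6 members (*vit-3* 0.75, adjusted p = 0.0358, and *vit-4* 0.76, adjusted p = 0.0257, edgeR) were called in *fust-1; ceh-14* against wild type, where letters did not pair the libraries. In that fit 162 of the 15679 genes tested were called in either direction. With the block and the length trend, 2 of 6 members were also called, where 98 of the 15679 genes were. The block with the length trend called 4 members in *tdp-1; ceh-14* against *tdp-1* (2 with the block and all 18 libraries), 2 in *tdp-1; ceh-14* against wild type and 1 in *tdp-1* against wild type. Without *tdp-1; ceh-14* replicate C, that fit rests on replicates A and B and 1 residual degree of freedom, and its calls are not counted here. The cause was not tested. The block changed no other call of a member.

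With each library left out, against wild type, *ceh-14* ran from -0.25 to 1.02 (*vit-1*), -0.23 to 1.22 (*vit-3*) and -0.12 to 1.27 (*vit-5*), changing sign without *ceh-14* replicate A. *tdp-1* ran from -0.89 to 0.00825 (*vit-1*), -0.68 to 0.0174 (*vit-2*), -0.98 to 0.0901 (*vit-5*) and -0.70 to 0.15 (*vit-6*), changing sign without wild-type replicate A and, for *vit-6* (0.0113), without *tdp-1* replicate B. *tdp-1; ceh-14* ran from -0.15 to 0.80 (*vit-3*) and -0.19 to 0.61 (*vit-4*), changing sign without wild-type replicate B or *tdp-1; ceh-14* replicate A. The median of the members in *fust-1* against wild type ran from -0.62 to 0.28, positive without wild-type replicate A or *fust-1* replicate B.

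Counts of all genes called moved by over 1.5 times under many alternatives. For *tdp-1* against wild type 21 genes were called, 829 by DESeq2 and 927 with the block. For *ceh-14* 15 were called, 143 by DESeq2. For *tdp-1; ceh-14* against *tdp-1* 619 were called, 1443 by DESeq2, and the members stayed at 0 of 6 called by DESeq2 throughout. The lowest member level was 296 CPM, so counting error was small beside the spread between libraries.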
